A study of Mus musculus with 8 samples.

Results

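The inhibitory checkpoint receptors of T cells and the ectoenzymes CD39 and CD73 were followed at the mRNA level in CD8+ T cells sorted from tumors and lymph nodes (LN). The set was given as 10 gene symbols: *Pdcd1* (PD-1), *Lag3* (LAG-3), *Havcr2* (TIM-3), *Tigit*, *Ctla4*, *Cd160*, *Btla*, *Cd244a* (2B4, listed in older annotation as *Cd244*), *Entpd1* (CD39) and *Nt5e* (CD73). Of these 10 genes, 9 had a probe set of their own among the 18193 genes named on the array, and *Tigit* has no value here. The 9 genes had 17 probe sets, and each gene was read from its brightest probe set, by the mean of the 8 arrays. C57BL/6 female mice, 6 to 8 weeks old when they were injected, carried subcutaneous MC38 tumors, a mouse colon carcinoma cell line. CD3+CD8+CD44+CD62L- T cells, a gate for antigen-experienced CD8+ T cells, were sorted from 4 groups: tumor T cells after IR, tumor T cells without IR, LN T cells after IR and LN T cells without IR. IR was 5 Gy of whole-body irradiation given 5 h before sacrifice. Each group had 2 arrays, from 2 independent experiments, and each array held RNA of cells pooled from 4 mice, so differences between single mice are not seen. Every mouse bore a tumor, draining and non-draining nodes were pooled, and tumors but not LN were digested with enzymes, so that tissue and digestion cannot be told apart.

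Checkpoint receptors are surface proteins that dampen signals of the T cell receptor. PD-1 and BTLA carry tails that recruit phosphatases, CD160 shares a ligand with BTLA, CTLA-4 competes with CD28 for CD80 and CD86, LAG-3 binds MHC class II, and TIM-3 and 2B4 can inhibit or activate depending on the adaptors at hand. CD39 degrades extracellular ATP to AMP, and CD73 turns AMP into adenosine, which inhibits T cells. Chronically stimulated CD8+ T cells in tumors are known to carry several of these proteins together, whereas BTLA is also a receptor of resting lymphocytes and B cells, CTLA-4 is abundant in regulatory T cells, and TIM-3, 2B4 and CD39 occur on myeloid or NK cells as well.

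Values are log2 intensities after RMA, a normalization that puts arrays on a common scale, so 1 unit is a doubling and levels can be set against each other between arrays of 1 gene but not between genes. A gene was called changed when it moved by 1 or more on the log2 scale, up or down, and limma gave a Benjamini-Hochberg adjusted p under 0.1 over all annotated probe sets. Replicates were closer in tumors than in LN: the correlation across genes was r = 0.992 in tumor T cells after IR and 0.993 in tumor T cells without IR, against 0.966 in LN T cells after IR and 0.982 in LN T cells without IR. The T cell label held on every array: *Cd8a*, the CD8 alpha chain, lay between 12.09 and 12.67, and *Cd3e*, a CD3 chain, between 12.14 and 12.63. The IR label held for *Phlda3*, a p53 target. It was 2.29 higher after IR in tumor T cells (limma adjusted p = 0.0301) and 4.12 higher after IR in LN T cells (adjusted p = 0.00178). *Cdkn1a*, the other gene chosen to check IR, was 3.84 higher after IR in LN T cells (adjusted p = 0.00392). In tumor T cells *Cdkn1a* was 1.95 higher and did not pass (adjusted p = 0.138). No main probe set of the 9 genes fell under the lower quartile of any array, which ran from 5.38 to 5.59.

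Without IR, tumor T cells held more mRNA than LN T cells for 5 of the 9 genes and less for 1. *Cd244a*, *Entpd1*, *Pdcd1*, *Havcr2* and *Lag3* rose in tumor T cells, by 18.0-fold, 9.81-fold, 7.24-fold, 5.41-fold and 2.41-fold. *Btla* fell 9.95-fold. *Ctla4*, *Cd160* and *Nt5e* did not pass. Of all 18193 genes, 5.54% were called changed in this comparison, 4.5% higher and 1.04% lower. The median log2 fold change of the 9 genes was 1.27, beside -0.09 over all genes. The arrays of both groups did not overlap for 8 of the 9 genes, 7 with tumor above and 1 with tumor below. Of all genes 56.5% did not overlap, 21.3% with tumor above and 35.2% with tumor below. In sorted bulk samples a change in the share of cells that carry a transcript and a change in the transcript per cell cannot be told apart.

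**Figure D1:**
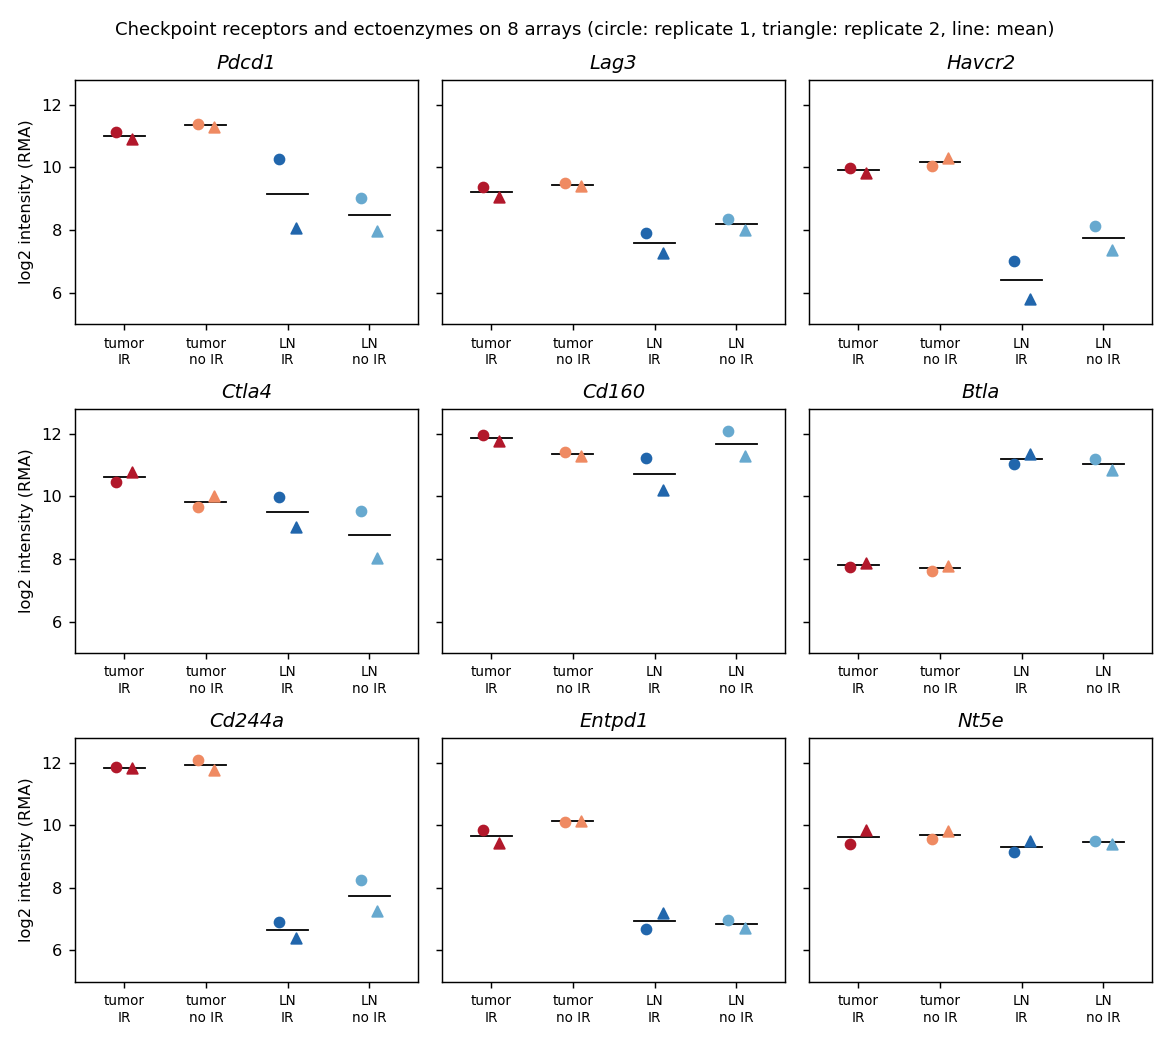
Log2 intensity (RMA, y axis) of each checkpoint gene and ectoenzyme on every array, grouped on the x axis as tumor after IR, tumor without IR, LN after IR and LN without IR; circles are replicate 1, triangles replicate 2 and lines the mean of both. All 4 tumor arrays of *Cd244a* lie between 11.76 and 12.08 and all 4 LN arrays between 6.38 and 8.24, while *Btla* runs the other way.

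*Cd244a*, the SLAM family receptor 2B4 that binds CD48, showed the widest gap. Its values were 12.08 and 11.76 in tumor T cells without IR, against 8.24 and 7.26 in LN T cells without IR, and 11.86 and 11.82 in tumor T cells after IR, against 6.90 and 6.38 in LN T cells after IR. Every tumor array thus stood above every LN array, and the tumor arrays differed among themselves by far less than the LN arrays did. This gave a log2 fold change of 4.17 ± 0.33 without IR (SE, limma adjusted p = 0.000854). The second probe set of *Cd244a* was higher by 3.07 (adjusted p = 0.000391).

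*Entpd1*, the gene of CD39, read 10.10 and 10.15 in tumor T cells without IR, against 6.96 and 6.70 in LN T cells without IR. After IR it read 9.85 and 9.43 in tumor T cells, against 6.69 and 7.19 in LN T cells. No tumor array came near an LN array, and replicates lay within 0.50 of each other in all 4 groups. Without IR its log2 fold change was 3.29 ± 0.23 (SE, adjusted p = 0.000521), and its other probe sets, 2 in number, gave 3.78 and 3.31. *Nt5e*, the gene of CD73, which takes the next step to adenosine, measured 9.57 and 9.83 in tumor T cells without IR, against 9.50 and 9.40 in LN T cells without IR. These values sat almost level, with a log2 fold change of 0.25 (95% interval -0.23 to 0.74, adjusted p = 0.597). Between tissues without IR, CD39 was called on 3 of 3 probe sets and CD73 on 0 of 3.

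*Havcr2*, the gene of the galectin-9 receptor TIM-3, had 10.05 and 10.31 in tumor T cells without IR, against 8.13 and 7.36 in LN T cells without IR. After IR it had 9.98 and 9.82 in tumor T cells, against 7.01 and 5.80 in LN T cells. The groups were apart in both settings, and the LN arrays after IR were the lowest. Without IR it rose by 2.43 ± 0.41 (SE, adjusted p = 0.0169). Left out in turn, replicate 2 of tumor T cells without IR (adjusted p = 0.147) and replicate 2 of LN T cells without IR (adjusted p = 0.103) each ended this call.

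*Pdcd1*, the gene of PD-1, had 11.39 and 11.29 in tumor T cells without IR, against 9.01 and 7.96 in LN T cells without IR. After IR it had 11.12 and 10.90 in tumor T cells, against 10.26 and 8.07 in LN T cells. Tumor arrays were close to each other and all above the LN arrays, among which replicate 1 after IR stood out as high. The log2 fold change without IR was 2.86 ± 0.66 (SE, 95% interval 1.30 to 4.41, adjusted p = 0.056). The call was lost without any single tumor array or without replicate 2 of LN T cells without IR, with adjusted p up to 0.277, although the fold change stayed between 2.33 and 3.38.

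*Lag3*, whose product binds MHC class II, had 9.50 and 9.41 in tumor T cells without IR, against 8.37 and 8.00 in LN T cells without IR. After IR it had 9.37 and 9.05 in tumor T cells, against 7.92 and 7.27 in LN T cells. The tissues did not overlap, and the step was the smallest of the 5 genes called higher. It rose by 1.27 ± 0.25 without IR (SE, adjusted p = 0.0321), and this call was lost without either tumor array without IR or without replicate 2 of LN T cells without IR, with adjusted p up to 0.193.

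*Btla*, whose product binds the TNF receptor family member HVEM, went against the others. It measured 7.62 and 7.78 in tumor T cells without IR, against 11.21 and 10.83 in LN T cells without IR, and 7.74 and 7.86 in tumor T cells after IR, against 11.02 and 11.36 in LN T cells after IR. The 4 tumor arrays were alike, the 4 LN arrays were alike, and no array lay between them. The log2 fold change without IR was -3.32 ± 0.19 (SE, adjusted p = 0.000353). B cell markers were also lower in tumor arrays: of 12 measured, 5 fell without IR (*Cd79b*, *Blk*, *Pou2af1*, *Ighm* and *Cd22*), and the mean of the list ran from 6.19 to 6.42 over the tumor arrays, against 7.28 to 8.04 over the LN arrays. Their part in the *Btla* difference was not tested.

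*Ctla4*, a competitor of CD28 for CD80 and CD86, had 9.65 and 10.00 in tumor T cells without IR, against 9.52 and 8.02 in LN T cells without IR. The LN arrays were 1.50 apart, more than the group difference of 1.06 (95% interval -0.13 to 2.24, adjusted p = 0.347). Without replicate 1 of LN T cells without IR, the difference was 1.80 and passed (adjusted p = 0.0795), and without replicate 2 it was 0.31 (adjusted p = 0.842). In such fits the LN group is a lone array, assumed to vary like the other groups. *Foxp3*, the lineage factor of regulatory T cells, gave 8.60 and 8.50 in tumor T cells without IR, against 8.98 and 8.40 in LN T cells without IR, which was no passing difference (-0.14 on the log2 scale, limma adjusted p = 0.802). Its part in the *Ctla4* values was not tested.

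*Cd160*, a receptor that shares the ligand HVEM with BTLA, had 11.41 and 11.29 in tumor T cells without IR, against 12.08 and 11.27 in LN T cells without IR. Here the tissues overlapped, and the log2 fold change was -0.32 (95% interval -1.20 to 0.55, adjusted p = 0.714). The 3 further probe sets of *Cd160* gave -0.50, -0.56 and -0.63, with all tumor arrays below the LN arrays, and none passed.

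The promoters of 4 genes are shown because their transcripts were called in both comparisons of tissues, those of *Cd244a*, *Havcr2* and *Entpd1* as higher and that of *Btla* as lower in tumor T cells. *Entpd1* has 2 promoters in the table, and none is shown for *Lag3*, which was also called in both. Each runs from 250 bases before to 50 bases after the start of the RefSeq transcript on GRCm38.p6, which matched 9 of the 10 genes with 11 promoters. Capitals mark TGANTCA (the AP-1 site), TGTGGT (a RUNX site) and ACGTG (the core of the hypoxia response element) on either strand, so a match on the other strand stands as its reverse complement.
*Cd244a* (chr1:171558943-171559242, plus strand): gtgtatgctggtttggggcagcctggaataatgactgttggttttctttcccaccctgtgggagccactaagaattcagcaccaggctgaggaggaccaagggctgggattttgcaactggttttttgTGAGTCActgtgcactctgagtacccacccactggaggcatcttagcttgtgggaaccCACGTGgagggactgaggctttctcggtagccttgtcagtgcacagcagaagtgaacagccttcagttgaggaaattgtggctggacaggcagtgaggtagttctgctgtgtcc
*Havcr2* (chr11:46454681-46454980, plus strand): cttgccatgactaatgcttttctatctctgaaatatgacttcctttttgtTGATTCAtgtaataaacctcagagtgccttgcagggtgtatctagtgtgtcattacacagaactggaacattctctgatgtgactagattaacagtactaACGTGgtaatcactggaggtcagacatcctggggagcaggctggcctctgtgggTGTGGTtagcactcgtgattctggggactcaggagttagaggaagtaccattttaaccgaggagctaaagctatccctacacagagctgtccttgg
*Entpd1*, first promoter (chr19:40612116-40612415, plus strand): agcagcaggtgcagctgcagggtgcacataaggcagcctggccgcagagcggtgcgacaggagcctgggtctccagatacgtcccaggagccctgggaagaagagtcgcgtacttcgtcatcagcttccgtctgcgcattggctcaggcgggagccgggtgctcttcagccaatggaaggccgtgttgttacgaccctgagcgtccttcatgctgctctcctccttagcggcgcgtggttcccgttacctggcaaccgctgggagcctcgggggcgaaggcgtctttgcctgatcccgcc
*Entpd1*, second promoter (chr19:40659520-40659819, plus strand): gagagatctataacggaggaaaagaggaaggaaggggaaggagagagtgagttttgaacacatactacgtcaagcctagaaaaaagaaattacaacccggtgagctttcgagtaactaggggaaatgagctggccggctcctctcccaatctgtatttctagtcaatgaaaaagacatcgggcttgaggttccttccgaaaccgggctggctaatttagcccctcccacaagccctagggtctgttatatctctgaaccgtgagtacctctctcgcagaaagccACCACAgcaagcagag
*Btla* (chr16:45224087-45224386, plus strand): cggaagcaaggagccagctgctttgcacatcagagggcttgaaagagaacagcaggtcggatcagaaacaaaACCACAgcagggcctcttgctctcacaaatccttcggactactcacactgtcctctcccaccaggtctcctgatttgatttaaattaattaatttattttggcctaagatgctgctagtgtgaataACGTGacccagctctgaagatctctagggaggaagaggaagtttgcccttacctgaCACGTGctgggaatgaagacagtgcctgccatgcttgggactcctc
Of these 5 promoters, those of *Cd244a* and *Havcr2* each held 1 AP-1 match, as did 7.81% of 32851 promoters of this length. ACGTG matched 1 time in *Havcr2*, 2 times in *Cd244a* and 3 times in *Btla*, where a palindrome counts once on each strand, and 19.6% of all promoters held it. TGTGGT was found in *Havcr2*, *Btla* and the second promoter of *Entpd1* and in 16.8% of all promoters. Neither promoter of *Entpd1* held TGANTCA or ACGTG. The *Pdcd1* promoter held none of these letters. It had 2 matches to GGAAA (the core of the NFAT site, in 61.3% of all promoters) and 1 to GGGCGG (the GC box, in 35.7%). These matches describe the letters only, and binding was not measured.

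After IR, tumor T cells held more mRNA than LN T cells for 4 of the 9 genes and less for 1, and 4 did not pass. On the main probe sets *Cd244a* was 36.7-fold higher, *Havcr2* 11.3-fold, *Entpd1* 6.50-fold and *Lag3* 3.07-fold, and *Btla* was 10.5-fold lower. The size depended on the probe set. The second probe set of *Cd244a* was 5.70-fold higher, and the other probe sets of *Entpd1* were 11.7-fold and 10.5-fold higher. Of all genes, 6.8% were called changed, 4.8% higher and 2% lower. The median log2 fold change of the 9 genes was 1.62, beside 0.06 over all genes. The groups did not overlap for 8 genes, 7 with tumor above and 1 with tumor below. Of all genes 50.1% did not overlap, 30.1% with tumor above and 20% with tumor below.

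Between tissues after IR, *Cd244a* had a log2 fold change of 5.20 ± 0.33 (SE, adjusted p = 0.000366). *Havcr2* gave 3.50 ± 0.41 in this comparison (adjusted p = 0.00396). *Entpd1* gave 2.70 ± 0.23 (adjusted p = 0.00109). These 3 genes thus stood far above the LN level in both settings. *Lag3* gave 1.62 ± 0.25 (adjusted p = 0.0123) and *Btla* -3.39 ± 0.19 (adjusted p = 0.000256). *Btla*, *Cd244a* and *Entpd1* passed in both tissue comparisons under each of the 21 alternative settings tried, while *Lag3* and *Havcr2* did so after IR only.

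*Pdcd1* did not pass after IR, with a log2 fold change of 1.85 (95% interval 0.30 to 3.40, adjusted p = 0.144). It did not pass in 16 of 21 alternatives either. It passed with the robust fit of the study's methods (limma adjusted p = 0.0293), the replicate block (0.0714) and arrays scaled on T cell identity genes (0.066). Its LN arrays after IR were 2.19 apart, the widest replicate gap among the 9 genes. Without replicate 1 of LN T cells after IR, the high array, the difference was 2.94 and passed (adjusted p = 0.00438), and without replicate 2 it was 0.75 (adjusted p = 0.319). The array left is again assumed to vary like the other groups. *Cd160* had 11.97 and 11.78 in tumor T cells after IR, against 11.23 and 10.21 in LN T cells after IR, a difference of 1.15 (95% interval 0.28 to 2.03, adjusted p = 0.112). Its arrays did not overlap on this probe set, and 9 of 21 alternatives passed it. The further probe sets of *Cd160* gave 0.48, 0.19 and 0.38, and none passed. The arrays overlapped on those at 0.48 and 0.19. *Ctla4* had 10.46 and 10.77 in tumor T cells after IR, against 9.98 and 9.03 in LN T cells after IR, a difference of 1.11 (95% interval -0.07 to 2.30, adjusted p = 0.237). Without replicate 1 of LN T cells after IR, *Ctla4* (1.59) and *Cd160* (1.66) passed as well, and without replicate 2 they were 0.63 and 0.64 and did not. *Nt5e* had 9.41 and 9.84 in tumor T cells after IR, against 9.15 and 9.48 in LN T cells after IR, which overlapped (difference 0.31, 95% interval -0.17 to 0.80, adjusted p = 0.423).

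**Figure D2:**
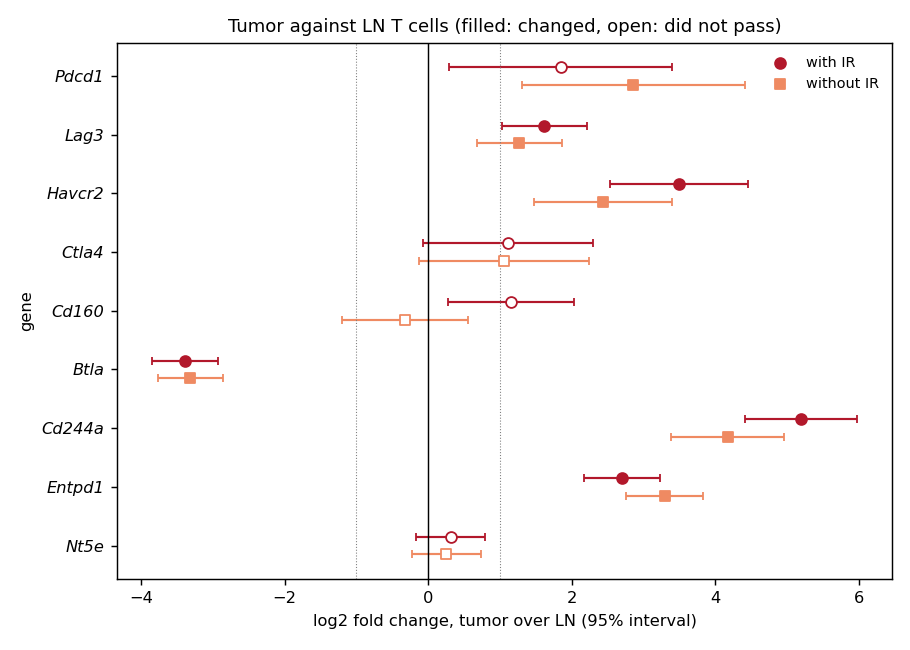
Log2 fold change of tumor over LN T cells (x axis, bars are 95% intervals from limma) for each gene, after IR (red circles) and without IR (orange squares); filled symbols passed, open ones did not, and dotted lines mark a fold change of 1 on the log2 scale. *Cd244a*, *Entpd1*, *Havcr2* and *Lag3* are filled on the right in both, *Pdcd1* without IR only, and *Btla* is filled on the left in both.

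Transcripts of other cell types moved with tissue in the same arrays. Among 21 genes of macrophages and monocytes, tumor T cells were higher for 17 without IR and for 16 after IR. The mean of that list ran from 9.01 to 11.04 over the tumor arrays, against 6.66 to 7.09 over the LN arrays. *C1qa*, a complement subunit of macrophages, was higher by 6.37 without IR (adjusted p = 0.000895) and by 4.83 after IR (adjusted p = 0.00277). *Csf1r*, the receptor for the macrophage growth factor CSF1, was higher by 4.45 and 3.51 in these comparisons, and *Adgre1*, which encodes F4/80, by 4.50 and 2.95. On replicate 1 of LN T cells without IR *Adgre1* (5.20) lay under the lower quartile of that array (5.48). Of 13 fibroblast markers 7 were higher without IR and 8 after IR, with list means of 8.42 to 8.89 over the tumor arrays, against 6.22 to 6.55 over the LN arrays. Without IR, 3 of 7 genes typical of NK cells rose in tumor T cells (*Klre1*, *Klrb1b* and *Fcer1g*) and 1 fell (*Eomes*). *Ncr1*, an NK cell receptor, had 4.73 and 5.77 in tumor T cells without IR, against 4.73 and 5.26 in LN T cells without IR. After IR it had 6.10 and 6.01 in tumor T cells, against 4.78 and 5.00 in LN T cells, and passed as higher (adjusted p = 0.0857). Its LN values lay under the lower quartile of their arrays (5.45 to 5.59), so no fold is given. Of 10 T cell identity genes 0 passed in either comparison, and their mean ran from 11.19 to 11.56 over the tumor arrays, against 11.21 to 11.83 over the LN arrays.

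In tumor T cells the macrophage list averaged 9.01 and 10.30 after IR and 10.26 and 11.04 without IR. Over the same arrays *Cd244a* lay between 11.76 and 12.08, *Havcr2* between 9.82 and 10.31 and *Entpd1* between 9.43 and 10.15. *Pdcd1* lay between 10.90 and 11.39, *Lag3* between 9.05 and 9.50 and *Ctla4* between 9.65 and 10.77. *Cd160* lay between 11.29 and 11.97, *Btla* between 7.62 and 7.86 and *Nt5e* between 9.41 and 9.84. These were the main probe sets. The second probe set of *Cd244a* read 8.33 and 8.54 after IR, against 9.49 and 9.04 without IR. With each array shifted to the same mean of the T cell identity genes, the 6 genes called without IR and the 5 called after IR still passed. Such a shift does not remove RNA of other cells. The part of macrophage, fibroblast and NK cell RNA in the values of the checkpoint genes was not tested.

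**Figure D3:**
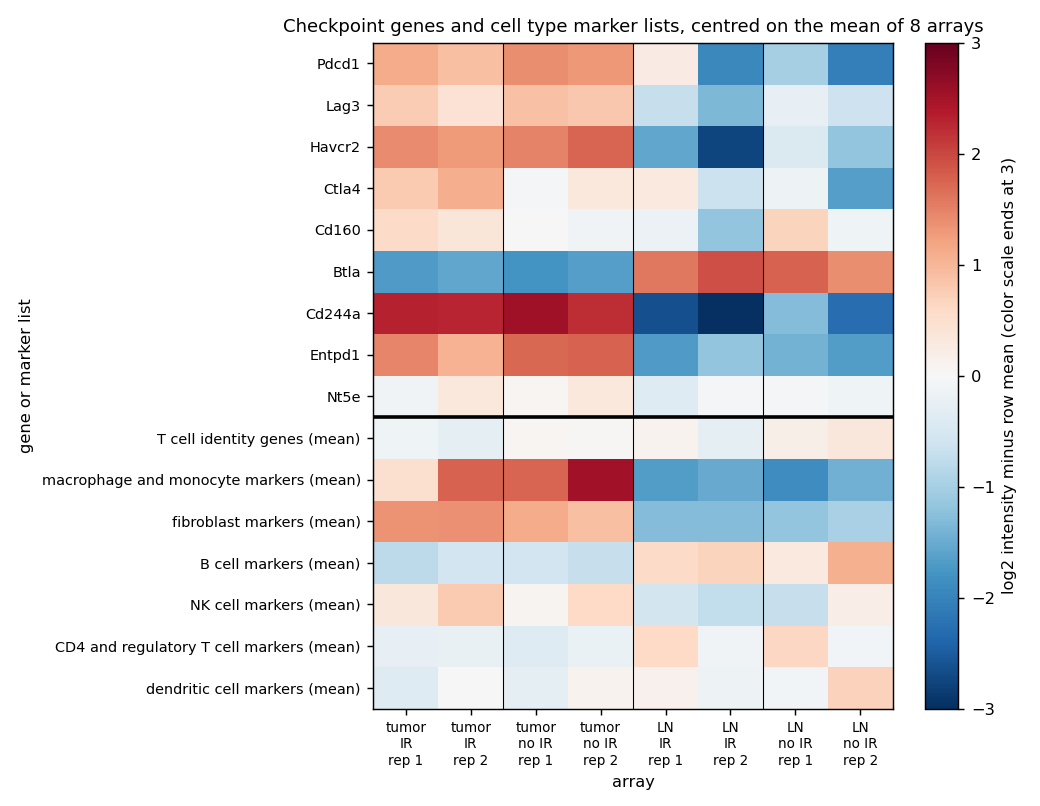
Heat map of the 9 genes (upper rows) and of the mean of each cell type marker list (lower rows) on the 8 arrays (x axis), as log2 intensity minus the row's mean; red is above and blue below it, and the color scale ends at 3. Macrophage and fibroblast means are red on the tumor arrays like most checkpoint genes, the B cell mean is blue there like *Btla*, and the T cell identity mean is pale throughout.

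Without IR, the other genes of the checkpoint pathway had smaller shares called than the 9 genes had. Of 13 ligands measured 2 were higher in tumor T cells and 0 lower (median log2 fold change 0.11). *Nectin3*, a nectin bound by TIGIT, passed as higher (adjusted p = 0.0264), at 7.94 and 7.70 in tumor T cells without IR, against 5.83 and 3.82 in LN T cells without IR. Of its 4 LN arrays 3 lay under the lower quartile of their array, so no fold is given. *Cd80*, the ligand of CTLA-4 and CD28, rose by 1.45 (adjusted p = 0.0813). The PD-1 ligands did not pass: *Cd274* gave 0.10 (adjusted p = 0.909) and *Pdcd1lg2* 1.19 (adjusted p = 0.122). Neither did *Tnfrsf14*, which encodes HVEM (-0.09, adjusted p = 0.808), nor *Cd48*, the ligand of 2B4 (-0.27, adjusted p = 0.466).

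Of 12 costimulatory receptors 3 were higher and 1 lower (median -0.10). *Tnfrsf9*, which encodes 4-1BB, rose by 2.44 (adjusted p = 0.00548), *Klrk1*, which encodes NKG2D, by 1.80 (adjusted p = 0.000914), and *Tnfrsf18*, which encodes GITR, by 1.19 (adjusted p = 0.00937). *Slamf6*, a SLAM receptor of less differentiated T cells, fell by 3.02 (adjusted p = 0.00132), close to *Btla*. Its values were 9.21 and 9.80 in tumor T cells without IR, against 12.58 and 12.47 in LN T cells without IR, with no overlap. Of 10 other inhibitory receptors 3 were higher and 0 lower (median 0.85). *Klrc1*, which encodes NKG2A, rose by 1.95 (adjusted p = 0.00174), *Cd200r1*, the CD200 receptor, by 1.83 (adjusted p = 0.0167), and *Pilra*, a receptor mainly of myeloid cells, by 3.43 (adjusted p = 0.0107).

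Of 12 genes of phosphatase and adaptor signalling, not all of which bind the receptor tails, 1 was higher and 1 lower, with a median of 0.17. These were *Sh2d2a*, a T cell adaptor (1.16), and *Pag1*, a membrane adaptor for the kinase CSK (-1.23). *Ptpn6*, the phosphatase SHP-1, passed after IR only, 1.62 higher in tumor T cells (adjusted p = 0.0286). Of 18 genes of the adenosine and purine pathway other than *Entpd1* and *Nt5e*, 1 was higher (*Bst1*, an ectoenzyme that uses NAD, 2.12) and 1 lower (*Entpd6*, a relative of CD39, -1.07), with a median of 0.04. On replicate 1 of LN T cells without IR *Bst1* (5.36) lay under the lower quartile of that array (5.48). Of 17 transcription factors of the checkpoint program 1 was higher and 2 lower (median 0.34). *Nr4a2*, a factor induced by T cell receptor signals, rose by 1.44 (adjusted p = 0.0331), *Eomes*, a T-box factor of CD8+ T cells, fell by 1.89 (adjusted p = 0.00759) and *Id3*, an inhibitor of E proteins, by 2.14 (adjusted p = 0.00322). *Tox*, a factor linked to exhaustion, did not pass between tissues without IR (0.46, adjusted p = 0.597). Its tissue difference after IR was 1.73 and passed (adjusted p = 0.0362). *Tbx21*, which encodes T-bet, likewise had a tissue difference of 0.66 without IR (adjusted p = 0.17). Its tissue difference after IR was 1.67 and passed (adjusted p = 0.00628). The difference between both settings passed for none of these genes.

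**Figure D4:**
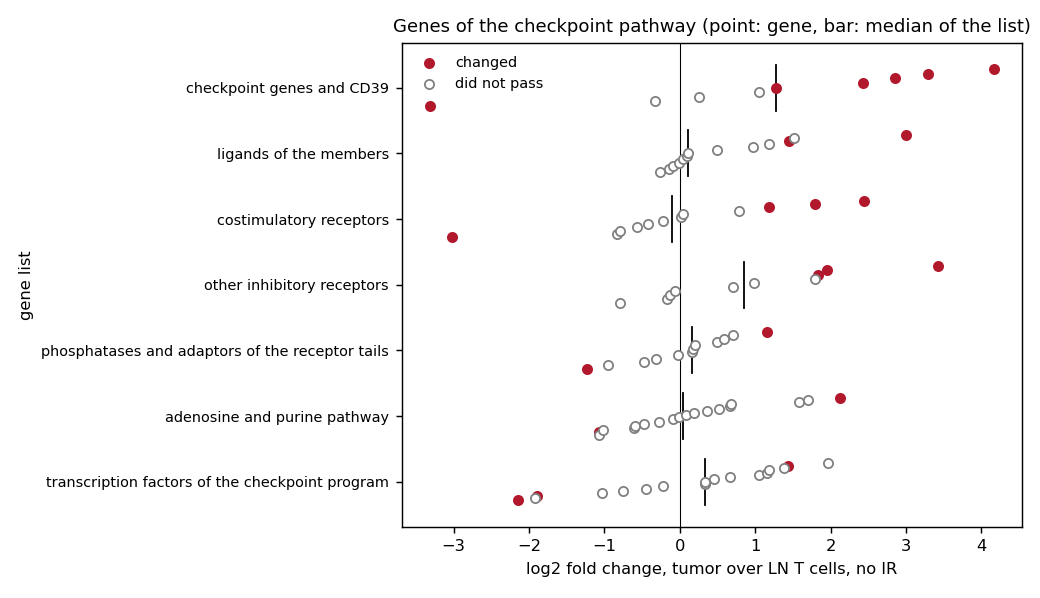
Log2 fold change of tumor over LN T cells without IR (x axis) for the 9 genes and for each list of the checkpoint pathway (y axis); each point is a gene, filled where it passed, and bars are list medians. The median is 1.27 for the 9 genes and lies between -0.10 and 0.85 for the lists.

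In tumor T cells none of the 9 genes passed 5 h after IR. With limma 0 of 9 were called on their main probe sets, and 0 had an unadjusted p under 0.05. Of all genes 0.0989% were called changed and 16.6% had an unadjusted p under 0.05. Fold changes ran from -0.48 to 0.79 with a median of -0.08, beside 0.09 over all genes. The arrays of both groups did not overlap for 6 of the 9 genes, beside 67.4% of all genes. *Ctla4* had the highest fold change, with 10.46 and 10.77 in tumor T cells after IR, against 9.65 and 10.00 in tumor T cells without IR. Both arrays after IR were above both without, and the difference of 0.79 did not pass (95% interval -0.39 to 1.97, adjusted p = 0.463). *Foxp3* had 9.24 and 9.19 in tumor T cells after IR, against 8.60 and 8.50 in tumor T cells without IR, and its part in the *Ctla4* values was not tested.

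*Entpd1* had the lowest, -0.48 (95% interval -1.02 to 0.05, adjusted p = 0.36), and all 3 of its probe sets had both arrays after IR below both without. Another of its probe sets gave -0.46 with an interval that leaves out 0 (-0.89 to -0.02, limma adjusted p = 0.32). Macrophage markers lay lower after IR in 20 of 21 cases (median -1.11, 0 passed), and their part in the *Entpd1* values was not tested. *Cd160* gave 0.52 (95% interval -0.35 to 1.40), *Pdcd1* -0.33 (-1.89 to 1.22), *Havcr2* -0.28 (-1.24 to 0.68) and *Lag3* -0.24 (-0.83 to 0.35). The further probe sets of *Cd160* were at -0.03, -0.04 and -0.26 here. The interval of *Pdcd1* reaches past 1 either way, but the fit shares the spread of a gene over all 4 groups. Replicates of *Pdcd1* were 0.22 and 0.10 apart in tumor T cells after and without IR. In LN T cells they were 2.19 and 1.05 apart, and these gaps widen the tumor interval too. *Btla*, *Cd244a* and *Nt5e* overlapped between arrays after and without IR, with differences of 0.10, -0.08 and -0.08. The second probe set of *Cd244a* differed from the first here, at -0.84 (95% interval -1.27 to -0.40, adjusted p = 0.264).

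In LN T cells no gene of the 9 passed after IR either, beside 1.05% of all genes called changed. For 4 genes the arrays did not overlap, all 4 lower after IR, beside 41.3% of all genes in either direction and 19.5% lower after IR. At an unadjusted p under 0.05 there were 3 of the 9, all lower after IR (*Havcr2*, *Cd160* and *Cd244a*), beside 14.3% of all genes. *Havcr2* had 7.01 and 5.80 in LN T cells after IR, against 8.13 and 7.36 in LN T cells without IR. Both arrays after IR lay below both without, and the difference was -1.34 (95% interval -2.30 to -0.38, adjusted p = 0.217). *Cd244a* had 6.90 and 6.38 after IR, against 8.24 and 7.26 without IR, a difference of -1.11 (95% interval -1.89 to -0.32, adjusted p = 0.214), and its second probe set gave -0.28. *Cd160* had 11.23 and 10.21 after IR, against 12.08 and 11.27 without IR, a difference of -0.95 (95% interval -1.83 to -0.08, adjusted p = 0.311).

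All 4 probe sets of *Cd160* had both LN arrays after IR below both without, with differences of -0.95, -1.01, -0.80 and -1.27. The last of these passed (adjusted p = 0.0876), at 6.98 and 7.04 after IR, against 8.62 and 7.94 without IR, the only 1 of the 17 probe sets to change with IR. T cell identity genes also lay lower after IR, 9 of 10 in LN T cells (median -0.36, 0 passed) and 10 of 10 in tumor T cells (median -0.27, 0 passed). With the arrays scaled to the mean of these genes, the LN differences were -0.996 for *Havcr2*, -0.61 for *Cd160* and -0.76 for *Cd244a*, and none passed. The 3 genes passed when replicate 1 of LN T cells after IR was left out, at -1.95, -1.46 and -1.36, with a lone array in that group, and without replicate 2 they gave -0.74, -0.44 and -0.85 and did not pass. *Lag3* lay at -0.59 (95% interval -1.18 to 0.0043, adjusted p = 0.343), with both arrays after IR below both without. *Ctla4* gave 0.73 (-0.45 to 1.92) and *Pdcd1* 0.67 (-0.88 to 2.23), with overlapping arrays, and without replicate 1 of LN T cells after IR the *Pdcd1* difference was -0.42, against 1.77 without replicate 2. *Btla*, *Entpd1* and *Nt5e* overlapped too, with 0.17, 0.11 and -0.14.

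**Figure D5:**
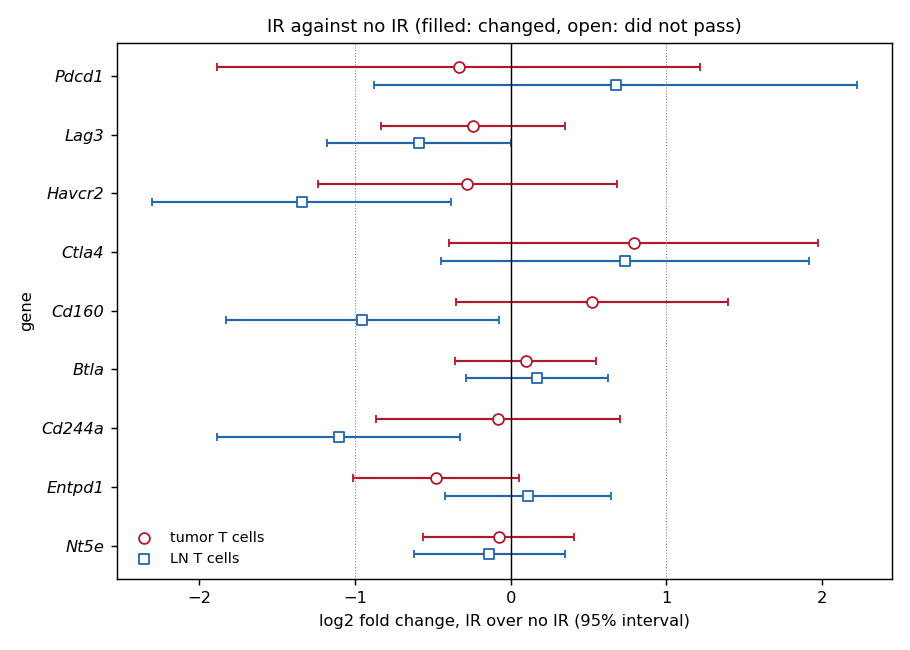
Log2 fold change of IR over no IR (x axis, bars are 95% intervals from limma) for each gene in tumor T cells (red circles) and LN T cells (blue squares); all symbols are open because none passed. In LN T cells *Havcr2*, *Cd160* and *Cd244a* lie left of 0 with their intervals, and in tumor T cells every interval includes 0.

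A test of whether IR acted differently in tumor and LN T cells passed for 0 of the 9 genes with limma, 1 of them at an unadjusted p under 0.05, beside 0% of all genes called and 5.63% at an unadjusted p under 0.05. That gene was *Cd160*, 0.52 in tumor T cells and -0.95 in LN T cells, a difference of 1.48 (95% interval 0.24 to 2.71, adjusted p = 0.773). Its further probe sets did not rise in tumor T cells (-0.03, -0.04 and -0.26) and gave differences of 0.98, 0.75 and 1.01. For *Havcr2* the difference was 1.06 (95% interval -0.29 to 2.42) and for *Cd244a* 1.02 (-0.08 to 2.13), both with an adjusted p of 0.782. The second probe set of *Cd244a* had the opposite sign, at -0.56 (95% interval -1.18 to 0.07). The larger tissue differences after IR on the main probe sets of these genes were therefore not shown to differ from those without IR. Among the pathway genes 0 passed after IR in tumor T cells. In LN T cells *Cd80* rose by 2.00 (adjusted p = 0.0876), *Tnfrsf18* by 1.54 (adjusted p = 0.0162) and *P2ry10*, a lysophospholipid receptor, by 1.18 (adjusted p = 0.0569), while *Crtam*, an adhesion receptor of activated T cells, fell by 1.10 (adjusted p = 0.0899) and *Tbx21* by 1.12 (adjusted p = 0.0971).

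Replicates differed most in LN. In both LN groups replicate 1 was above replicate 2 for 6 of the 9 genes (*Pdcd1*, *Lag3*, *Havcr2*, *Ctla4*, *Cd160* and *Cd244a*) and below it for 0, beside 32.9% of all genes above and 23.4% below. The gap for *Pdcd1* was 2.19 in LN T cells after IR and 1.05 in LN T cells without IR, against 0.22 in tumor T cells after IR and 0.10 in tumor T cells without IR. On replicate 1 of both LN groups 7 of 9 markers of CD4+ or regulatory T cells, which the CD8+ sort should remove, were higher and 0 lower. The mean of that list was 8.37 and 7.67 in LN T cells after IR and 8.40 and 7.69 in LN T cells without IR, while the tumor arrays lay between 7.40 and 7.56. Of 17 transcription factors of the checkpoint program 12 were higher and 1 was lower. Other lists had more genes lower on replicate 1 in both LN groups: 8 of 12 B cell markers (2 higher), 10 of 21 macrophage and monocyte markers (4 higher) and 4 of 7 NK cell markers (0 higher). The part of other cell types in the replicate gaps was not tested, and the labels do not tie a replicate number to an experiment.

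The genes whose profile over the 8 arrays lay nearest to each of the 9, by the root mean square of the difference between profiles centred on their means, were named as a description. For *Btla* the nearest was *Slamf6* (0.32, beside 1.68 for the spread of *Btla* itself) and then *Tet1*, a DNA demethylase (0.36). *Slamf6* shared the pattern of 4 high LN arrays and 4 low tumor arrays. For *Havcr2* it was *Cx3cr1*, a chemokine receptor that was also on the macrophage list (0.18, beside 1.60), and then *D630039A03Rik* (0.28). *Cx3cr1* had 11.27 and 11.43 in tumor T cells without IR, against 8.93 and 8.20 in LN T cells without IR. For *Pdcd1* it was *Cish*, a cytokine-induced inhibitor of signalling (0.29, beside 1.35), and then *Tmbim1* (0.30). *Cish* had 11.11 and 11.02 in tumor T cells after IR, against 10.57 and 8.68 in LN T cells after IR, with the same high replicate 1 as *Pdcd1*.

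For *Cd244a* the nearest were *Cpe* (0.40, beside 2.39) and *Emp1* (0.43). For *Entpd1* they were *Crabp1*, a retinoic acid carrier (0.17, beside 1.52), and *Bnc1* (0.22). For *Lag3* they were *Aspn*, an extracellular matrix protein (0.09, beside 0.78), and *Crtap* (0.12). *Bnc1* and *Cpe* lay under the lower quartile on all 4 LN arrays, *Aspn* on 3 and *Crabp1* on 2 of them. These likenesses describe 8 arrays that share 2 tissues. *Ctla4* lay nearest to *Kif1c* (0.24, beside 0.81) and *Mid2* (0.27), and *Cd160* to *AU016916* (0.13, beside 0.55) and *Knstrn* (0.16). *Nt5e* spanned less than 1 over the arrays and was given no neighbour.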

How the data were processed

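RNA of sorted CD3+CD8+CD44+CD62L- T cells was hybridized to Affymetrix Mouse 430 2.0 arrays, and the deposited values are log2 intensities that the authors normalized with RMA (version not given in the sources used here), 45101 probe sets on 8 arrays. RMA forces the arrays to 1 distribution, so a shift of all genes cannot be seen, and the number of arrays limits the precision. Probe sets were named from the platform annotation: 34945 name 1 gene, 932 several, 9160 none and 64 are controls; 34741 matched RefSeq (GRCm38.p6) by gene ID. Groups and replicate numbers came from the sample titles.

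A linear model with 4 groups of 2 arrays was fitted by least squares with limma 3.58.1 in R 4.3.3, with moderated variances, and p-values were adjusted by Benjamini-Hochberg over 35877 annotated probe sets. Called changed were genes that moved by 1 or more on the log2 scale with an adjusted p below 0.1, the thresholds of the study's methods, whose robust fit was an alternative. SAM was not run. The p-values measure the spread between arrays of pooled mice. That spread was shared by all 4 groups, so the wider LN replicates also enter the intervals and p-values of IR in tumor T cells. The fit was tried on simulated data in which all groups had the same spread. That trial does not cover the unequal spread of tumor and LN arrays.

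Alternatives were a robust fit, a variance trend, array weights, the replicate number as a block, only the 4 arrays compared, a threshold of 0.05 or no fold limit, the most variable probe set, a filter on the dimmer 50% of probe sets, cyclic loess, arrays scaled on T cell identity genes and leaving out each array. Leaving out both LN arrays of a number and a replicate block within each tissue were added after the data were seen. The 9 genes, the 209 genes listed beside them (23 not measured) and the tests were chosen with earlier results of these data known. Named were all members, up to 3 changed genes of each pathway list by size without IR and up to 2 that changed elsewhere. Defining markers, *Phlda3* and *Cdkn1a* for IR and the 2 nearest profiles of each member were also named. The ligands of PD-1, BTLA and 2B4 were named after their values were seen. Other genes were named only where a count of 5 or fewer would have stayed unnamed. Promoters came from RefSeq's tables and motifs were searched with Python 3.11.15.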

Additional observations from a re-analysis of the deposited data

How the results depend on the processing

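Of 909 values of single genes recomputed under the alternatives, 834 kept their direction and their side of the threshold, 28 passed only in the alternative, 11 only in the original setting and 36 changed sign, none of which passed in either. The count of genes changed was 8 after IR between tissues and 2 (*Havcr2*, *Cd244a*) after IR in LN T cells with the robust fit. It was 8 between tissues after IR without both LN arrays numbered 1, chosen after seeing the data, where the lone array of each LN group is assumed to vary like the others. With each array left out in turn, the count ran from 3 to 7 between tissues without IR (3 without replicate 2 of tumor or of LN T cells without IR), from 5 to 8 between tissues after IR, from 0 to 3 after IR in LN T cells and from 0 to 2 (*Havcr2*, *Cd160*) for the difference of the IR effects; each highest value of the last 3 came without replicate 1 of LN T cells after IR. The causes were not tested.

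Signs that changed belonged to differences that did not pass. With the most variable probe set, *Entpd1* after IR in LN T cells was -0.22 and the difference of IR effects of *Nt5e* -0.28. With cyclic loess, IR in tumor T cells gave 0.026 for *Cd244a* and 0.029 for *Nt5e*, IR in LN T cells 0.062 for *Nt5e*, and the difference of IR effects -0.037 for *Ctla4* and -0.032 for *Nt5e*. Scaled to T cell identity genes, IR in tumor T cells gave 0.029 for *Lag3*, 0.19 for *Cd244a* and 0.19 for *Nt5e*, IR in LN T cells 0.21 for *Nt5e*, and the difference of IR effects -0.020 for *Ctla4* and -0.019 for *Nt5e*. Without both LN arrays numbered 1, *Cd160* between tissues without IR was 0.078. With each array left out, *Cd160* between tissues without IR ran from -0.73 to 0.078. IR in tumor T cells ran from -0.29 to 0.14 for *Nt5e* and from -0.24 to 0.077 for *Cd244a*. IR in LN T cells ran from -0.42 to 1.77 for *Pdcd1*, from -0.014 to 1.48 for *Ctla4*, from -0.018 to 0.36 for *Btla*, from -0.14 to 0.36 for *Entpd1* and from -0.30 to 0.031 for *Nt5e*. The difference of IR effects ran from -2.10 to 0.087 for *Pdcd1*, from -0.69 to 0.80 for *Ctla4*, from -0.26 to 0.11 for *Btla* and from -0.16 to 0.27 for *Nt5e*.

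Scaling to T cell identity genes moved the median of all genes from -0.09 to 0.11 between tissues without IR, from 0.06 to 0.17 between tissues after IR, from 0.09 to 0.36 for IR in tumor and from 0.01 to 0.35 for IR in LN T cells. The share of changed genes that were higher moved from 70.6% to 81.5% between tissues after IR and from 74.9% to 95.2% for IR in LN T cells. Differences between replicates 1 and 2 correlated across genes at 0.43 within each tissue, between the groups with and without IR, and between -0.14 and 0.07 across tissues; the labels do not tie numbers to experiments, so they were not used as pairs. With the replicate number as a block the counts were 6, 7, 0, 0 and 0, *Pdcd1* and *Cd160* being added between tissues after IR. With a replicate block within each tissue, chosen after seeing the data for the IR comparisons, the counts were 0 in tumor T cells, 2 in LN T cells (*Havcr2*, adjusted p = 0.0393, and *Cd244a*, adjusted p = 0.0507) and 0 for the difference of IR effects, while the number called among all genes in LN T cells was 505, against 191 without it. A group of 2 arrays limits what can be seen in LN T cells most.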

Other observations

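Marker lists of further cell types moved less between tissues than the macrophage list. Of 11 dendritic cell markers 0 were higher and 1 was lower in tumor T cells both without and after IR, *Ccr7*, a receptor that guides cells to LN. Of 9 CD4 and regulatory T cell markers 1 (*Ikzf4*) was higher and 2 (*Trat1* and *Ccr4*) were lower in tumor T cells without IR. In the tissue comparison after IR, *Cd4*, *Trat1* and *Ccr4* were lower in tumor T cells. Of 9 endothelial and 6 neutrophil markers 0 passed in any of the comparisons of tissues or of IR. Of 8 MC38 and epithelial markers 2 were higher in tumor T cells both without and after IR, *Cdh1*, which encodes E-cadherin, and *Sox9*, a transcription factor.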
